A study of Mus musculus with 52 samples.

Results

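A set of 10 genes that mark the progenitor cells of the developing cerebral cortex was followed across mouse brain tissue with and without the microRNA miR-146a. They are Pax6, Sox2, Emx2, Hopx, Nes, Vim and Fabp7, which mark radial glia, and Eomes, Neurog2 and Sstr2, which are used here for intermediate progenitors. All 10 were found among the 48526 gene IDs that each of the 3 tables lists. The knockout animals carry the label miR-146a KO and the others the label WT. At embryonic day 14 (E14) the whole cortex was taken, in 5 KO and 4 WT libraries. At postnatal day 30 (P30) the amygdala, the frontal cortex and the hippocampus were taken, each in 4 KO and 4 WT libraries. At postnatal day 60 (P60) the amygdala and the frontal cortex had 4 KO and 3 WT libraries each, and the hippocampus had 2 KO and 3 WT libraries. The labels state neither the strain nor how the gene was deleted. Per the series' design text, mice of a genotype came from different mothers.

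Radial glia are the stem cells of the embryonic cortex. They line the ventricle, span the wall of the cortex, and give rise to neurons either directly or through intermediate progenitors, which divide in the subventricular zone and switch on Eomes. Most of these cells are used up by birth, and the radial glia that remain become astrocytes and ependymal cells, while the dentate gyrus of the hippocampus keeps dividing progenitors in the adult mouse. Several radial glia genes stay on in astrocytes and in cells of vessels, so a postnatal transcript of such a gene does not by itself mark a progenitor.

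The deleted microRNA is shown because a microRNA finds most of its targets through matches to its seed. Its mature sequence, from RefSeq on GRCm38.p6 (chr11:43374435-43374456, minus strand), is printed with the seed, bases 2 to 8, in capitals.
mmu-miR-146a-5p: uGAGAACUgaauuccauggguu
A match to the seed reads AGTTCTC, or GTTCTCA where an A follows the last 6 paired bases, and both were searched on the transcript strand alone. In the GENCODE M21 annotation of GRCm38, 0 of the 10 progenitor genes held either match in any annotated 3′ untranslated region, against 4435 of 20957 genes with such a region (21.2%). The absence says only that these letters are not in the annotated windows. The gene of the microRNA itself, Mir146 (ENSMUSG00000065601), had 0 reads in 27 KO libraries and 1 read in 25 WT libraries. Poly-A libraries do not capture a mature microRNA, so this count does not check the genotype labels.

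Values are normalised reads, which are reads over a scaled library size and lie close to CPM. Depth, recovered from the values, ran from 8079912 to 9469214 reads per library at E14, from 2933026 to 8141105 at P30 and from 5322181 to 7379353 at P60. Sex, read from Xist and Y-linked genes, was not balanced, with 2 females and 3 males in KO against 3 females and 1 male in WT at E14. At P30 each region had 3 females and 1 male in KO against 1 female and 3 males in WT. The tissue is bulk, so fewer cells of a type and less RNA per cell cannot be told apart. At P30 a pair of WT libraries stood apart. The sum over 8 choroid plexus genes was 66.5 to 1199 in KO hippocampi, against 44.7 to 200.8 in 3 WT hippocampi and 5613 in WT hippocampus 3. WT amygdala 3 had the highest sums of its group over 12 astrocyte genes (9882) and 10 vessel genes (787). The choroid plexus sum in amygdala was 12.4 to 16.9 in KO, against 15.4 to 42.0 in 3 WT libraries and 1257 in WT amygdala 1. Results at P30 that rest on the WT libraries numbered 3 are given with and without them, and whether libraries of 1 number come from 1 mouse is not stated in the labels.

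In the E14 cortex 9 of the 10 genes were strongly expressed. Genes were set side by side as RPKM, computed from recovered reads and the merged length of all annotated exons. That length is 11694 bases for Pax6 and 1250 for Fabp7, so the order of genes depends in part on the annotation. KO means were 229 for Fabp7, 94.5 for Vim, 58.6 for Nes, 57.5 for Sox2 and 43.3 for Eomes. They were 37.0 for Neurog2, 24.4 for Sstr2, 21.3 for Emx2 and 15.9 for Pax6. The WT means were 234 for Fabp7, 102 for Vim, 65.9 for Nes, 60.7 for Sox2, 35.3 for Eomes, 35.8 for Neurog2, 18.5 for Sstr2, 20.9 for Emx2 and 17.0 for Pax6 RPKM. Among 30830 genes with a read, these WT levels lay between the 89.5th percentile (Pax6) and the 99.8th (Fabp7). Hopx was the exception, at 0.803 RPKM in KO and 0.923 RPKM in WT, the 40.1st percentile, so it did not mark this tissue by its level.

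For the transcription factors of radial glia the difference between KO and WT means was smaller than the SD within either genotype. Pax6 (chr2:105668900-105697364, plus strand), a paired-box factor needed for cortical neurogenesis, had 202, 228, 234, 149 and 121 normalised reads in the 5 KO libraries, against 154, 206, 206 and 220.3 in the 4 WT libraries. Its means were 187 ± 49.9 in KO and 197 ± 29.1 in WT (SD, n = 5 and 4). The 2 lowest values of the 9 were KO, as were the 2 highest, so the groups overlapped throughout. Sox2 (chr3:34650405-34652461, plus strand), a stem cell factor that keeps progenitors undifferentiated, had 134, 121, 161, 84.0 and 96.0 in KO, against 110.2, 124, 138 and 122 in WT. Again KO held both the highest value and the 2 lowest.

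Emx2 (chr19:59458372-59465357, plus strand), a homeodomain factor that is graded across the cortical sheet and needed for the hippocampus, spread widely. It had 68.4, 96.9, 88.1, 36.4 and 32.1 in KO, against 37.7, 76.2, 48.6 and 86.0 in WT, and means of 64.4 ± 29.4 in KO and 62.1 ± 22.8 in WT (SD, n = 5 and 4). KO library 2 was the highest of the 9 and KO library 5 the lowest. The summed level of 8 cortical hem genes, from the edge of the cortex where Emx2 is high, was 46.3, 79.0, 54.5, 20.2 and 13.8 in KO, against 31.9, 57.2, 32.0 and 91.5 in WT. KO library 2 and WT library 4 had the highest sums of hem genes, of choroid plexus genes (253 and 317) and of meningeal genes (166 and 200.01), and the part of such tissue in the Emx2 values was not tested. Hopx (chr5:77086988-77115121, minus strand), a homeodomain protein without DNA binding that marks outer radial glia in the human cortex, had 0.880, 1.49, 1.79, 1.48 and 0.460 in KO, against 1.15, 2.09, 0.75 and 1.56 in WT. These values rest on 52 reads in all KO and 51 reads in all WT libraries, and counting error alone makes each of them imprecise.

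The structural and metabolic genes of radial glia split. Nes (chr3:87971078-87980451, plus strand) encodes the intermediate filament nestin and had 499.6, 425, 443, 259 and 266 in KO, against 331, 437, 447 and 461 in WT. Vim (chr2:13573927-13582826, plus strand) encodes vimentin, the filament partner of nestin, and had 515, 525, 576, 354 and 284 in KO, against 394, 517, 479 and 530.4 in WT. In both genes KO libraries 4 and 5 were the lowest of all 9 and KO libraries 1 to 3 lay inside or above the WT range. Fabp7 (chr10:57784881-57788450, plus strand), a fatty acid binding protein of radial glia and astrocytes, had 279, 265, 329.8, 316 and 249.7 in KO, against 321, 306, 261 and 274 in WT. It spread little, with means of 288 ± 33.9 in KO and 291 ± 27.9 in WT (SD, n = 5 and 4), and KO library 4 was among its highest values.

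The intermediate progenitor genes held the 2 largest differences between genotypes on the log2 scale. Eomes (chr9:118478212-118486132, plus strand), the T-box factor that defines intermediate progenitors, had 178, 218, 211, 164 and 135 in KO, against 123, 161, 119.5 and 178 in WT. Its means were 181 ± 34.3 in KO and 146 ± 29.0 in WT (SD, n = 5 and 4), and 2 KO libraries lay above every WT library. Neurog2 (chr3:127633135-127635631, plus strand), a proneural factor that acts in radial glia before Eomes, had 81.2, 106, 109, 65.8 and 53.0 in KO, against 55.0, 89.8, 69.6 and 101 in WT. KO held both its lowest and its highest values, as for Pax6. Sstr2 (chr11:113619342-113626028, plus strand), a receptor for the peptide somatostatin, had 43.2, 54.95, 50, 56.6 and 57.8 in KO, against 44.5, 42.2, 31.5 and 39.6 in WT. Here 4 of 5 KO libraries lay above all 4 WT libraries, and KO library 1 lay between the WT values.

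**Figure D1:**
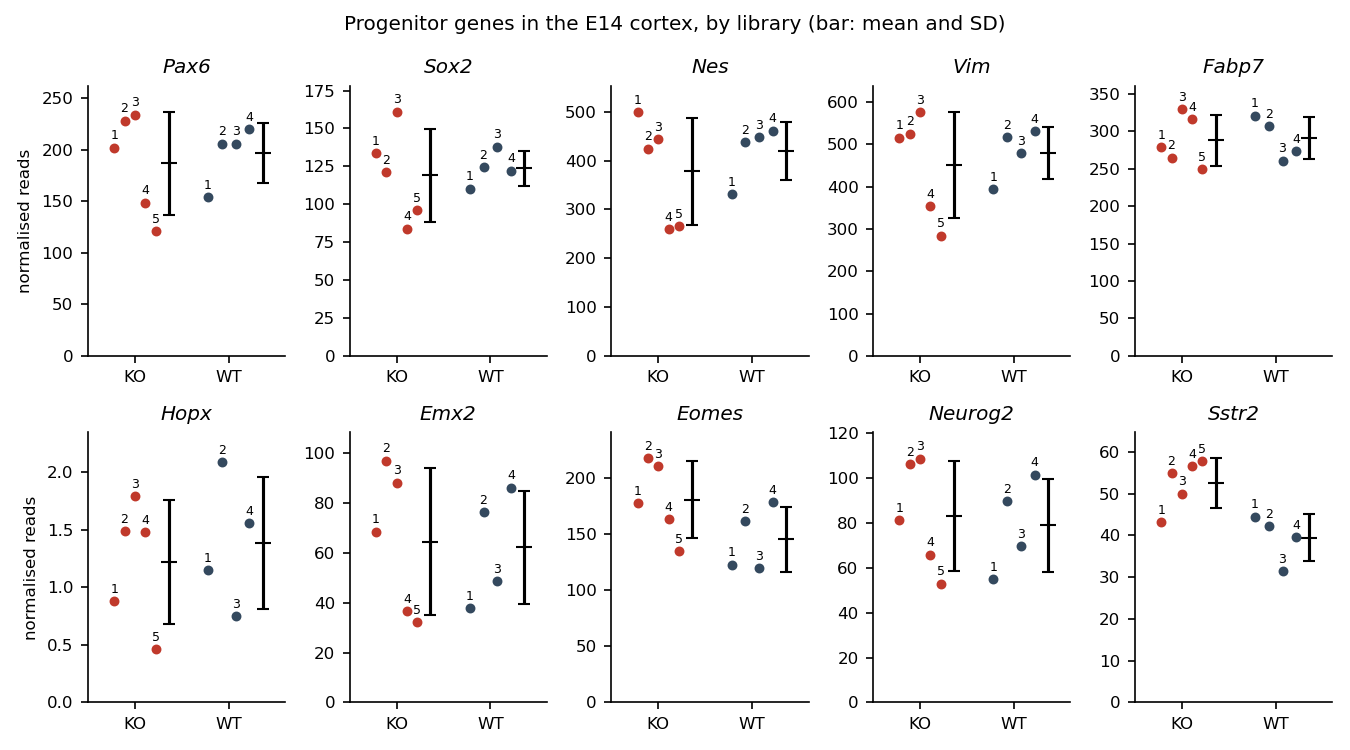
Normalised reads of each gene (y axis) in the KO and WT libraries of the E14 cortex (x axis), with 1 point a library, its number above it, and a bar for the mean and SD of the group. KO libraries 4 and 5 are the lowest 2 points for Nes and Vim, while 4 of 5 KO points lie above all WT points for Sstr2.

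No gene of the 10 passed the test between KO and WT at E14. By limma on log2(value + 1), with Benjamini-Hochberg adjustment over all 18350 genes tested, 0 of 10 passed an adjusted p of 0.05, where 0.049% of all genes did (9 genes). At an unadjusted p under 0.05 there was 1 member, Sstr2, or 1 of 10, against 2.89% of all genes, and voom on recovered reads also called 0. The log2 fold change of Sstr2, KO over WT, was 0.41 (SE 0.114, 95% interval 0.16 to 0.66, limma unadjusted p = 0.0040, adjusted p = 1.00). For Eomes it was 0.31 (SE 0.161, 95% interval -0.05 to 0.67, limma adjusted p = 1.00). The other 8 lay between -0.19 (Nes) and 0.06 (Neurog2). Their intervals differ in what they leave room for, from -0.22 to 0.19 for Fabp7 to -0.81 to 0.79 for Emx2. Leaving out 1 library at a time kept Sstr2 between 0.31 and 0.47 and Eomes between 0.22 and 0.42, with no call in any of the 9 fits.

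Other genes of the same cell types gave no call either. Of 16 other radial glia genes, such as Slc1a3, Hes1 and Sox9, 7 lay above and 9 below 0 (median log2 fold change -0.02), and of 12 other intermediate progenitor genes, such as Insm1, Btg2 and Neurod4, 7 lay above and 5 below (median 0.01), with 0 called in both lists. The median of the 10 progenitor genes was -0.05 and that of all genes tested 0.01. In the somatostatin family, the peptide gene Sst had a log2 fold change of 0.36 (SE 0.131), and the receptors Sstr3 and Sstr1 had 0.41 (SE 0.151) and 0.10 (SE 0.146), with limma adjusted p = 1.00 for each. All 4 tested genes of that family, Sstr2 included, lay above 0, and none passed the test.

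The low values at E14 sat in a few libraries. KO library 5 was the lowest of the 9 for 6 genes (Pax6, Vim, Fabp7, Hopx, Emx2 and Neurog2) and KO library 4 for Sox2 and Nes, while KO library 3 was the highest for 5 genes and below the median for none. On the log2 scale the 10 genes averaged 0.52 below the median of the 9 libraries in KO library 5, 0.30 below it in KO library 4 and 0.32 below it in WT library 1. Sstr2 went the other way, with its highest value in KO library 5. WT library 3 was the lowest for Eomes and for Sstr2.

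Markers of proliferation and of neurons moved with these libraries. The summed level of 15 proliferation genes was 3519, 3689, 3710.3, 1970 and 2140 in the 5 KO libraries, against 2698, 3267, 3086 and 3546 in WT, so KO libraries 4 and 5 were the lowest of the 9. The summed level of 12 neuron genes was 6656, 6076, 6179, 8578 and 8743 in KO, against 7292, 6368, 6467 and 5803 in WT, with KO libraries 4 and 5 the highest. Between genotypes 15 of 15 proliferation genes lay below 0 and 11 of 12 neuron genes lay above 0 (median log2 fold changes -0.09 and 0.22), with 0 called in either list. A list of 10 genes of the neighbouring diencephalon and midbrain summed to 187 to 524 in KO and 557 to 727 in WT, without overlap. Of these genes 3 (Lmx1b, Foxa1 and Foxb1) were called lower in KO, where 0.049% of all genes were called. The lists were chosen with earlier results of these data known, so neither this count nor the separation of the sums is a test. Of 8 Cajal-Retzius cell genes, a cell type that also uses Eomes, 8 lay below 0 with sums of 396 to 648 in KO and 634 to 695 in WT, and 0 were called. No gene of these 4 lists was at 0 in every library of a genotype. The part of tissue makeup in the values of the 10 genes was not tested.

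**Figure D2:**
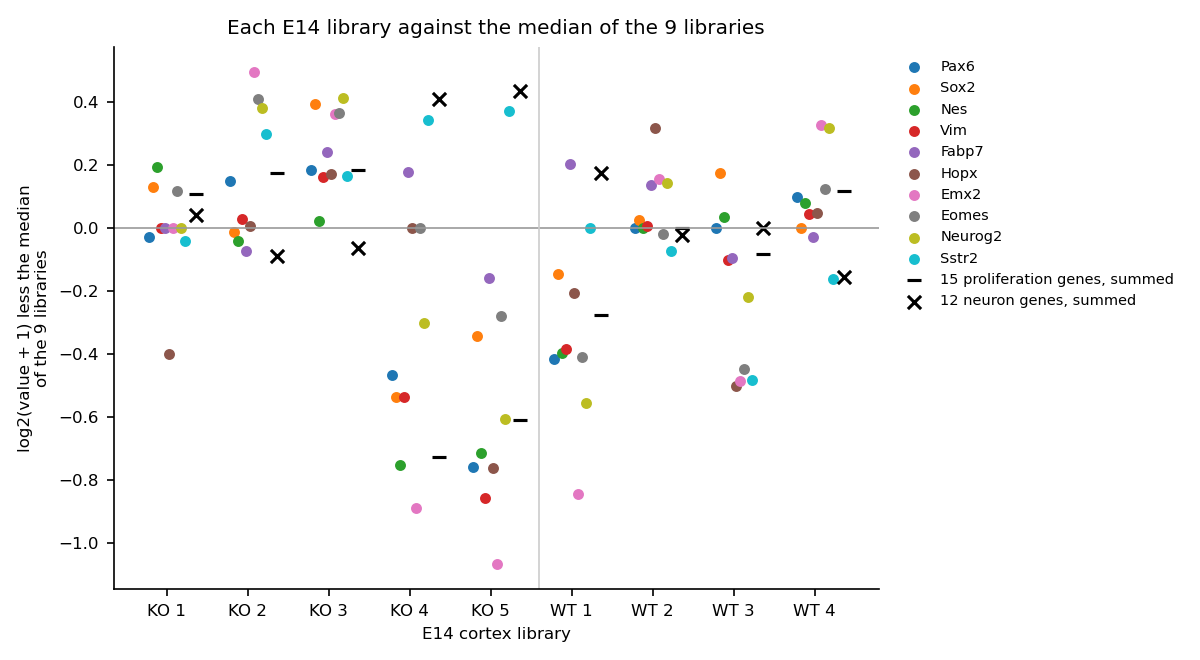
Difference in log2(value + 1) of each gene from its median over the 9 libraries of the E14 cortex (y axis), by library (x axis, KO left of WT), with summed proliferation genes as dashes and summed neuron genes as crosses. In KO libraries 4 and 5 most progenitor genes and the proliferation genes lie below 0, while Sstr2 and the neuron genes lie above 0.

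After birth 9 of the 10 genes stood below their E14 level in every region, age and genotype, and Hopx stood above it. The comparison uses group means of CPM computed from recovered reads. It carries no test, because the tables were normalised separately and the E14 tissue is whole cortex. The SD given with a share is that of the postnatal libraries over a fixed E14 mean. The spread between E14 libraries is not in it, so it overstates how precise a share is. In P30 frontal cortex the median gene kept 7.27% of its E14 level in KO and 7.13% in WT. Over 10901 genes with a mean of at least 10 CPM in WT E14 cortex, the median in WT P30 frontal cortex was 65.6%. Of these genes 4.42% had under 10% left. Hopx lay below that E14 level, with a mean of 1.40 CPM.

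Eomes and Neurog2 were nearly gone. In P30 frontal cortex Eomes kept 0.234% ± 0.117 of its E14 level in KO and 0.102% ± 0.0841 in WT (SD, n = 4 each), which rests on 13 reads in 4 KO libraries and 4 reads in 4 WT libraries. Neurog2 kept 0.714% ± 0.384 in KO and 0.942% ± 0.510 in WT (SD, n = 4 each), on 18 and 19 reads. The hippocampus kept the most at P30. Eomes stood there at 1.89% ± 0.280 in KO and 3.37% ± 3.62 in WT (SD, n = 4 each), and Neurog2 at 2.15% ± 1.17 in KO and 1.23% ± 0.722 in WT. The WT value of Eomes rests on WT library 3 of the hippocampus and is 1.56% without it. Leaving out 1 library moved the share by more than 1.5 times for Eomes in 7 and for Neurog2 in 3 of their 12 groups each, and for no other gene in any group.

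Nes, Vim, Pax6 and Fabp7 kept a small share. In P30 frontal cortex Nes stood at 3.91% ± 0.477 in KO and 3.39% ± 0.870 in WT, and Vim at 5.43% ± 0.196 in KO and 4.97% ± 0.517 in WT (SD, n = 4 each). Pax6 stood at 6.96% ± 0.847 in KO and 6.45% ± 1.05 in WT. Fabp7 depended on the region, with 7.57% ± 0.833 in KO and 7.81% ± 1.83 in WT frontal cortex, but 18.6% ± 4.57 in KO and 21.1% ± 3.63 in WT amygdala (SD, n = 4 each).

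Sox2, Emx2 and Sstr2 kept more, and Hopx was higher than at E14. In P30 frontal cortex Sox2 stood at 18.1% ± 2.04 in KO and 16.9% ± 2.26 in WT, and Emx2 at 24.2% ± 4.34 in KO and 27.2% ± 4.23 in WT (SD, n = 4 each). Sstr2 stood at 37.6% ± 5.85 in KO and 45.6% ± 7.05 in WT. Hopx was at 298% ± 45.4 of its E14 level in KO and 234% ± 29.7 in WT frontal cortex. Leaving out 1 E14 library gave 257% to 337% in KO and 204% to 282% in WT. In the P30 hippocampus Hopx was at 845% ± 156 in KO and 753% ± 233 in WT. At P60 the median gene in frontal cortex had 5.84% left in KO and 6.28% in WT, near the P30 values, but Eomes and Neurog2 were lower in most groups. In the P60 hippocampus Eomes stood at 0.648% in KO and 1.21% in WT, and Neurog2 at 0.475% in KO and 0.774% in WT. In RPKM, the order of the genes in WT P30 frontal cortex was Fabp7 (18.3), Sox2 (10.2), Sstr2 (8.46), Emx2 (5.67), Vim (5.07), Nes (2.23), Hopx (2.16), Pax6 (1.09), Neurog2 (0.337) and Eomes (0.0361). In this order Emx2 and Vim, and Nes and Hopx, differed by less than the SD between libraries. The order also depends in part on the merged exon lengths.

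**Figure D3:**
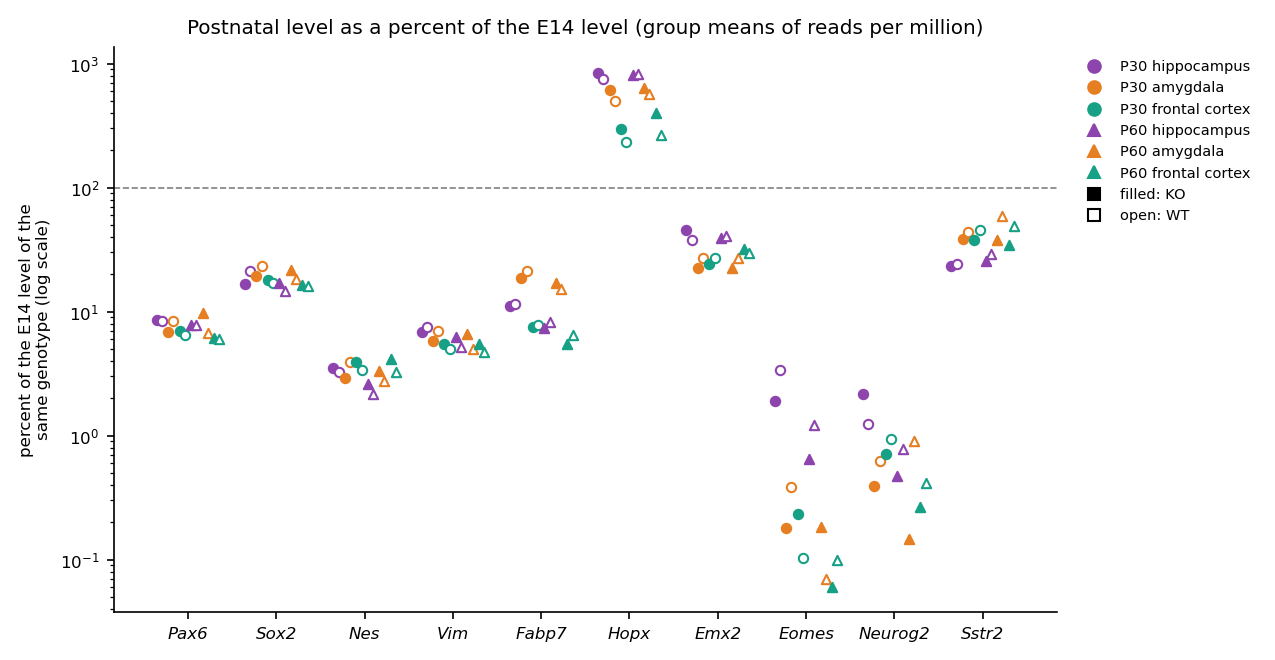
Mean level after birth as a percent of the mean E14 level of the same genotype (y axis, log scale), for each gene (x axis), region (colour), age (circle P30, triangle P60) and genotype (filled KO, open WT). All points of Hopx lie above 100%, all points of the other 9 genes lie below it, and Eomes and Neurog2 are lowest.

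The postnatal regions differed in which progenitor genes they kept. Over KO and WT libraries together, 7 of the 9 genes tested differed between P30 hippocampus and frontal cortex (limma, adjusted over 18976 genes), where 43.3% of all genes did, and 5 of 9 did at P60, where 32.8% of all genes did. Between P30 amygdala and frontal cortex 3 of 9 differed against 37.3% of all genes, and between P60 amygdala and frontal cortex 3 of 9 against 31.4%. Between hippocampus and amygdala 5 of 9 differed at P30 against 44.1% of all genes, and 4 of 9 at P60 against 29%. Neurog2 did not pass the filter on low values at either age and was not tested. Eomes passed through its hippocampal libraries alone, so its region differences had to be found and its values are given below without a test. Without Eomes the counts between hippocampus and frontal cortex were 6 of 8 at P30 and 4 of 8 at P60, and between hippocampus and amygdala 4 of 8 and 3 of 8. Over so few genes none of these shares is read as a result about the genes as a set.

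Hopx, Emx2 and Eomes were higher in the hippocampus than in the frontal cortex at both ages. Hopx, which in the adult mouse is known from astrocytes and from neural stem cells of the dentate gyrus, ran from 7.25 to 13.7 in 8 P30 hippocampi (median 9.85), against 2.93 to 4.13 in 8 frontal cortices (median 3.44). No hippocampal library overlapped the frontal cortex, and the log2 difference was 1.34 (SE 0.142, limma adjusted p = 2.2e-08). At P60 the 5 hippocampi ran from 8.54 to 12.2 (median 11.1), against 2.98 to 6.85 in the 7 frontal cortices (median 4.28), with a log2 difference of 1.17 (SE 0.220, limma adjusted p = 0.00044). The amygdala lay between them, with medians of 6.48 at P30 and 7.44 at P60, and was above the frontal cortex by 0.85 (SE 0.142, limma adjusted p = 4.2e-05) and 0.69 (SE 0.199, limma adjusted p = 0.013).

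Emx2 ran from 18.2 to 31.5 in P30 hippocampi (median 28.0), against 13.4 to 20.3 in frontal cortices (median 14.8). The ranges touched through 1 hippocampal library, WT 3 with the high choroid plexus sum, and the log2 difference was 0.67 (SE 0.125, limma adjusted p = 9.8e-05) with the WT libraries numbered 3 and 0.76 without them. At P60 the difference was 0.36 (SE 0.0959, limma adjusted p = 0.0074), and Emx2 was lower in the amygdala than in the frontal cortex by -0.31 on the log2 scale (SE 0.0870, limma adjusted p = 0.011). Its antisense neighbour Emx2os, which shares 264 exon bases with it, was higher in P30 hippocampus than in frontal cortex by 1.30 (SE 0.176, limma adjusted p = 1.7e-06). The labels do not state whether the authors' counting used the strand, so reads in the shared bases cannot be told apart. The same holds for Hopx, which shares 412 exon bases with its antisense neighbour Hopxos.

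Eomes, which in the adult marks the dividing neuronal progenitors of the dentate gyrus, had 3.85, 3.58, 3.43 and 2.75 in the 4 KO hippocampi at P30, against 3.04, 1.78, 12.2 and 2.23 in the 4 WT hippocampi. The 8 frontal cortices ran from 0 to 0.610 and the 8 amygdalae from 0.140 to 1.2, so every hippocampus lay above every library of the other regions. In log2(value + 1) the hippocampus was above the frontal cortex by 1.83, and by 1.55 without the WT libraries numbered 3. The means of the 2 regions were 4.105 and 0.286, so this scale understates the ratio of values this low. At P60 Eomes had 0.780 and 1.54 in the KO hippocampi, against 0.290, 1.70 and 3.44 in the WT hippocampi. In the same order of libraries, the sum over 7 hippocampal neuron genes was 387 and 1088 in KO, against 414, 992 and 679 in WT. The part of tissue makeup in these Eomes values was not tested. The P60 frontal cortices ran from 0 to 0.290 and the difference in log2(value + 1) was 1.04, with means of 1.55 and 0.126. A library with 0 reads of Eomes allows up to 3 reads, and levels this low are set largely by counting.

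Genes known from dividing progenitors and young neurons of the dentate gyrus were set beside Eomes. Their counts are read against the 43.3% of all genes called at P30 and the 32.8% called at P60. The filter on low values can pass a low gene of these lists through its hippocampal libraries alone, as for Eomes. Such a gene had to lie above 0, and which genes passed that way was not examined. The directions and counts below are therefore no test beside Eomes. Of 10 other intermediate progenitor genes tested at P30, all 10 lay above 0 in hippocampus over frontal cortex (median 0.30) and 3 were called higher, with the neuronal factor Neurod1 at 1.51 and Mfap4 at 1.52. Of 10 proliferation genes 4 were called higher and 0 lower, the largest being Mki67, a marker of cycling cells, at 1.36. Neither list had a larger share of calls than all genes had. Of 10 genes of immature dentate neurons 6 were called higher, led by Igfbpl1 at 2.85, and 3 lower, Stmn1, Dcx and Tubb3. At P60 the calls were 5 higher and 0 lower of 11 intermediate progenitor genes, 2 higher and 1 lower of 9 proliferation genes, and 7 higher and 3 lower of 10 immature neuron genes. The other radial glia genes did not share a direction, with 4 higher and 6 lower of 14 at P30. Choroid plexus genes were also higher in the P30 hippocampus (8 of 8 above 0, 2 called), with sums of 66.5 to 1199 in KO and 44.7 to 5613 in WT, and their part in the Eomes level was not tested.

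Fabp7 was highest in the amygdala. It ran from 42.6 to 72.5 in 8 P30 amygdalae (median 56.4), against 17.5 to 28.7 in the frontal cortices (median 22.01), without overlap, and the log2 difference was 1.32 (SE 0.120, limma adjusted p = 1.4e-08). The hippocampus had 25.4 to 41.6 (median 32.6), above the frontal cortex by 0.54 (SE 0.120, limma adjusted p = 0.00071). At P60 the amygdala was above the frontal cortex by 1.42 (SE 0.167, limma adjusted p = 8.6e-06), with 38.8 to 54.3 in 7 amygdalae against 9.54 to 26.5 in 7 frontal cortices. Of 12 astrocyte genes 5 were called higher and 3 lower in P30 amygdala than in frontal cortex (median -0.02), where 37.3% of all genes were called.

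Sstr2 was lower in the hippocampus. It ran from 7.89 to 16.6 in P30 hippocampi (median 8.87), against 15.1 to 22.1 in frontal cortices (median 18.8) and 14.9 to 25.5 in amygdalae (median 17.8). The hippocampus differed from the frontal cortex by -0.79 (SE 0.139, limma adjusted p = 5.4e-05) and from the amygdala by -0.77 (SE 0.139, limma adjusted p = 7.7e-05), though KO hippocampus 1, at 16.6, lay inside the ranges of both other regions. At P60 it was lower than in frontal cortex by -0.57 (SE 0.205, limma adjusted p = 0.041), a call that ended in 9 of the 12 fits that leave out 1 library (adjusted p up to 0.191). Below the P60 amygdala it stood by -0.75 (limma adjusted p = 0.011), which ended without KO hippocampus 1 (adjusted p = 0.0685).

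The remaining radial glia genes differed less. In P30 hippocampus over frontal cortex the log2 difference was 0.43 for Vim (SE 0.120, limma adjusted p = 0.0060) and 0.31 for Pax6 (SE 0.107, limma adjusted p = 0.022). The mean of Vim in WT P30 hippocampus was 36.2, or 31.1 without WT hippocampus 3, against 24.1 in WT frontal cortex. The call of Pax6 ended in 4 of the 16 fits that leave out 1 library (adjusted p up to 0.0586), and neither gene was called at P60. Sox2 was higher in P30 amygdala than in frontal cortex by 0.27 (SE 0.0876, limma adjusted p = 0.018), which ended without KO amygdala 3 (adjusted p = 0.053) and by voom (adjusted p = 0.0517). Nes was lower in P60 hippocampus than in frontal cortex by -0.62 (SE 0.175, limma adjusted p = 0.010), which ended without KO hippocampus 2 (adjusted p = 0.107).

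**Figure D4:**
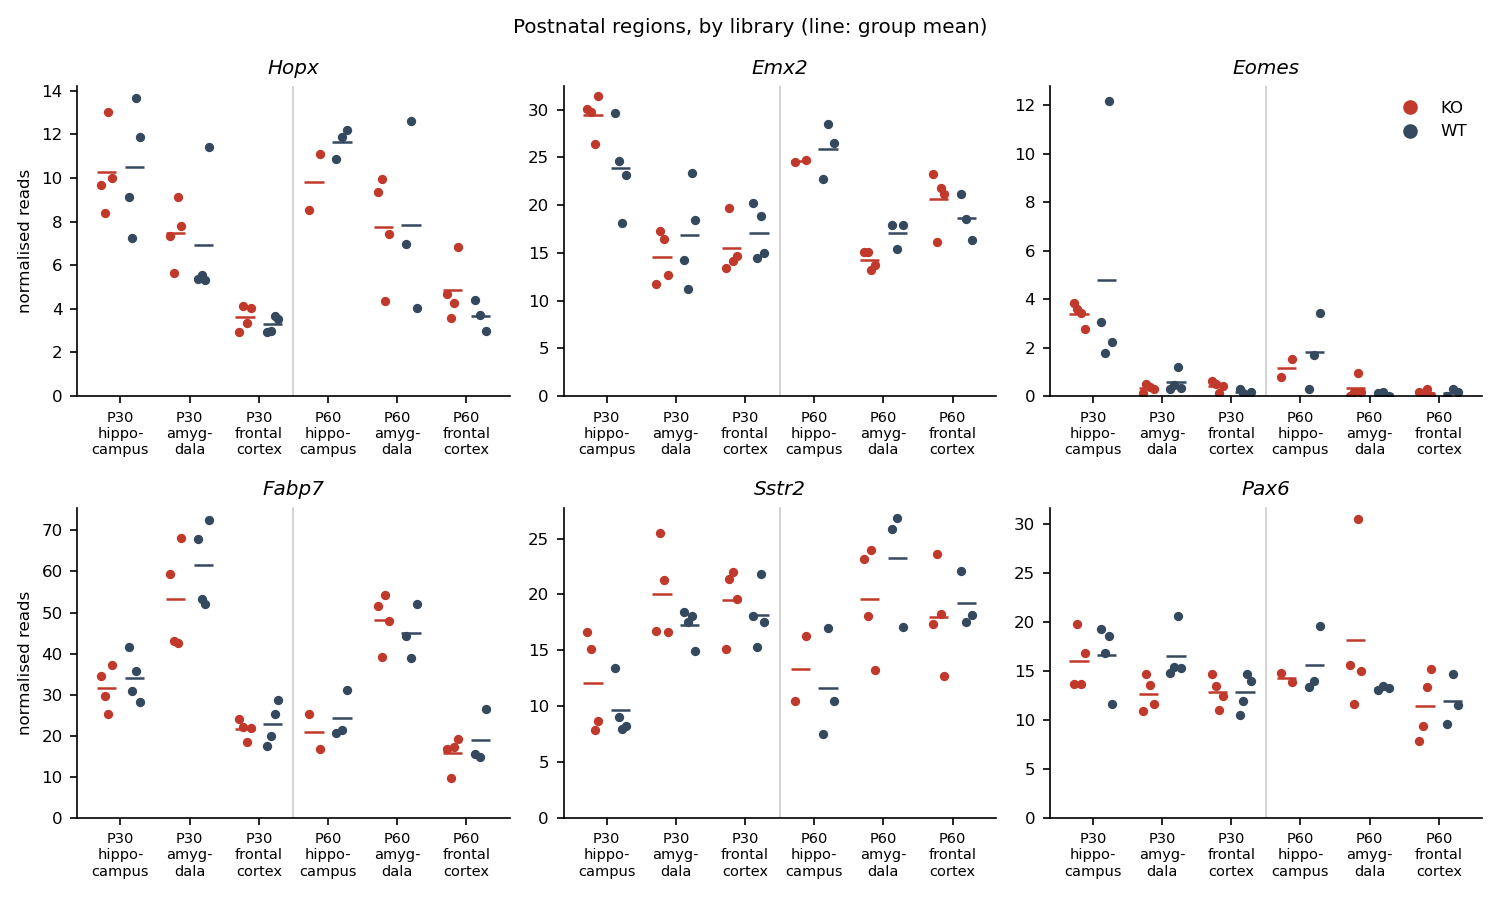
Normalised reads of 6 genes (y axis) in each postnatal library, by age and region (x axis), with KO left of WT in each region, 1 point a library and a line for the group mean. Hopx, Emx2 and Eomes are highest in the hippocampus, Fabp7 is highest in the amygdala, and Sstr2 is lowest in the hippocampus.

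Within the postnatal regions no gene of the 9 tested passed the test between KO and WT. By limma 0 of 9 were called in P30 amygdala, frontal cortex and hippocampus, where 0.0263%, 0.0158% and 0.0316% of all genes were, and 0 of 9 in P60 amygdala, frontal cortex and hippocampus, where 0.0208%, 0.0312% and 0.0208% were. Voom called 0 as well. At an unadjusted p under 0.05 there were 2 of 9 genes in P30 amygdala, against 9.82% of all genes. There was 1 of 9 in P30 hippocampus, against 9.55%, and 0 in the other 4 regions, against 1.96% to 4.07%. Over so few genes these counts are not read as a result about the genes. No gene of the 18976 tested at P30 or the 19239 at P60 had a genotype difference that was called as different between regions, so 0 of 9 stands beside 0%. At an unadjusted p under 0.05 that test had Sox2 in P30 hippocampus less frontal cortex, 1 of 9 against 4.96% of all genes. It also had Emx2 in P60 amygdala less frontal cortex, 1 of 9 against 3.14%, and neither is read as a result.

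The genes behind the unadjusted values were Sox2 and Pax6. Sox2 in P30 amygdala had 21.0, 21.4, 28.0 and 20.8 in KO, against 30.7, 27.1, 30.5 and 27.6 in WT. KO library 3 alone reached the WT range, and the log2 fold change was -0.34 (SE 0.124, limma unadjusted p = 0.011, adjusted p = 0.364). In P30 hippocampus Sox2 had 18.6, 20.4, 23.3 and 17.4 in KO, against 20.9, 24.3, 32.9 and 26.6 in WT, a log2 fold change of -0.37 (SE 0.124, limma unadjusted p = 0.0066, adjusted p = 0.354), and of -0.25 without WT hippocampus 3. The long noncoding gene Sox2ot, which encloses Sox2 on the same strand with no shared exon base, had -0.64 there (SE 0.204, limma adjusted p = 0.328). In P30 frontal cortex Sox2 had 24.1, 19.9, 22.2 and 19.2 in KO, against 19.03, 23.6, 18.6 and 23.2 in WT, with a log2 fold change of 0.02. Pax6 in P30 amygdala had 10.9, 14.7, 13.5 and 11.7 in KO, against 14.8, 15.4, 20.7 and 15.3 in WT. All 4 KO values lay below the 4 WT values, and the log2 fold change was -0.35 (SE 0.152, limma unadjusted p = 0.028, adjusted p = 0.440), and -0.25 without WT amygdala 3. Sums of glial genes were also lower in KO than in WT in P30 amygdala. The sum over 12 astrocyte genes was 6113 to 6745 in KO and 6844 to 9882 in WT, and that over 8 oligodendrocyte precursor genes was 334 to 377 in KO and 401 to 471 in WT, both without overlap. By library they did not follow Sox2 throughout, as KO amygdala 3, the KO library with the highest Sox2, had an astrocyte sum of 6436. In P30 hippocampus the oligodendrocyte precursor sum was 344 to 428 in KO and 353 to 696 in WT. The astrocyte sum there was 7351 to 8223 in KO and 6413 to 8949 in WT. Its lowest value was in WT hippocampus 3, which had the highest Sox2. The part of glia in the Sox2 and Pax6 values was not tested.

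In P30 amygdala 7 of 9 genes lay below 0, with a median log2 fold change of -0.22 against 0.00 for all genes, and Nes and Vim had -0.45 and -0.35. The WT amygdala 3 library, with high astrocyte and vessel sums, had the highest Nes (30.3, against 9.56 to 14.6 in the other WT amygdalae) and Vim (49.9, against 25.6 to 32.0). Without that library the log2 fold change was -0.13 for Nes, -0.15 for Vim, -0.03 for Eomes and -0.0018 for Emx2. At P60 the 9 genes did not keep that direction, with 7 of 9 above 0 in the amygdala (median 0.10). Emx2 in P60 amygdala had 15.1, 15.1, 13.2 and 13.7 in KO, against 17.9, 15.4 and 17.9 in WT, without overlap (log2 fold change -0.24, SE 0.123, limma adjusted p = 1.00). In P60 hippocampus, with 2 KO libraries, the 95% interval of Eomes ran from -1.01 to 0.56 on the log2 scale, the widest of the 9 genes there. Neurog2, which was not tested, had 0.15, 0, 0 and 0.33 in KO against 0.57, 0.48 and 1.13 in WT amygdala at P60. These values did not overlap and rest on 3 reads in KO and 14 in WT. The share of all genes whose KO and WT libraries do not overlap was not computed. The separations of Neurog2 and Emx2 here, and of Pax6 in P30 amygdala, are therefore not read as results.

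**Figure D5:**
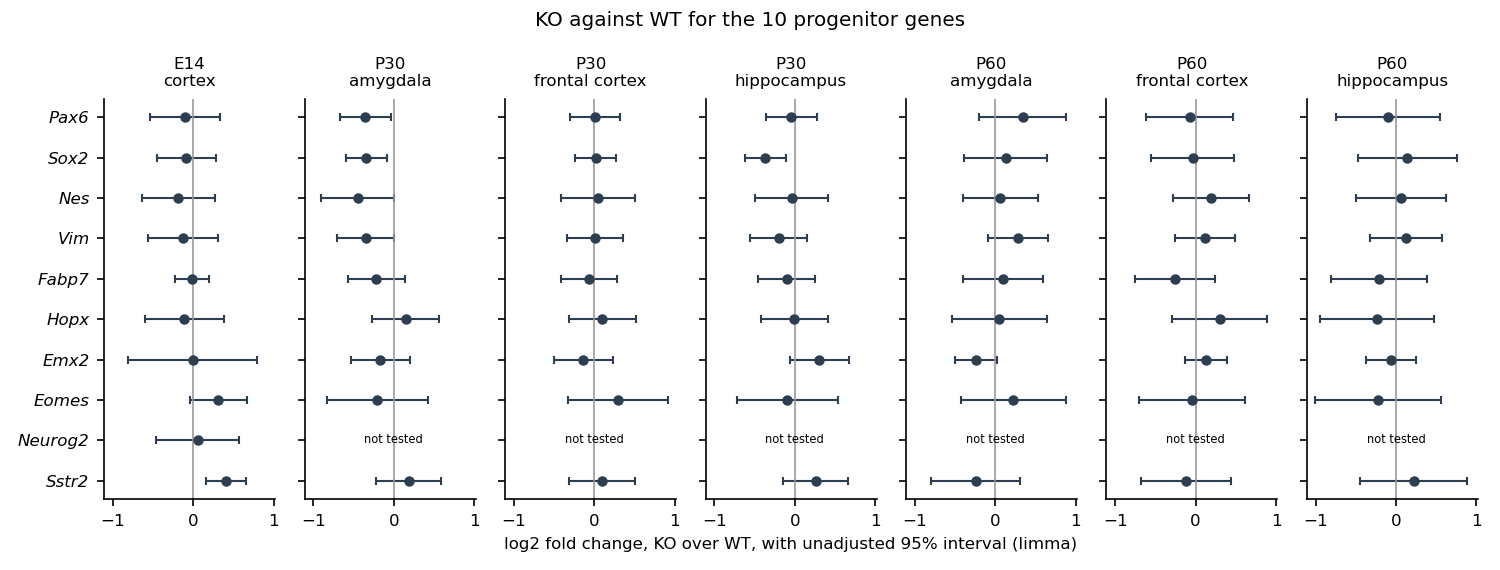
Log2 fold change of KO over WT on the log2(value + 1) scale with its unadjusted 95% interval (x axis) for each gene (y axis) in the E14 cortex and the 6 postnatal regions (panels). Intervals leave out 0 for Sstr2 at E14, for Pax6 and Sox2 in P30 amygdala and for Sox2 in P30 hippocampus, and no value passed after adjustment over all genes.

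The level of each gene over the 14 groups was set beside that of 11683 genes, centred on its own mean on the log2 scale, as a root mean square difference over the group means. The gene nearest to Eomes was Mki67 (0.279), followed by Igfbpl1 (0.334) and Draxin (0.435), which in the hippocampus are known from young dentate neurons. The nearest to Neurog2 were Cenpe (0.164), Bub1 (0.193) and Uhrf1 (0.194), which act in chromosome segregation and in the upkeep of DNA methylation. E2f7, a cell cycle repressor, was nearest to Nes (0.141), and Amotl2 to Sox2 (0.111). Nt5dc3 was nearest to Hopx (0.152), Plod2 to Emx2 (0.154) and Nap1l1 to Sstr2 (0.156). The drop after E14 makes up most of these patterns, and with a pseudocount of 0.1 16 of the 30 nearest genes were the same. All 3 were kept for Eomes, with Igfbpl1 then first, and for Sox2 and Sstr2, and none of the 3 for Neurog2, Nes or Hopx.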

How the data were processed

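Per the labels' protocols, total RNA went through a stranded poly-A library kit and paired-end sequencing. The authors deposited 3 tables, 1 an age, of normalised reads with decimal commas, and the tools named per the submitters' processing notes are edgeR, DESeq and limma beside the mm9 build, without roles. No source used here states the aligner, the annotation or the scaling. Column totals ran from 945861 to 1039135. Within 0.1 read, 100.0% of values were whole multiples of a step per library, which gave back reads, and CPM and RPKM were computed from these. Every value column was mapped to a sample.

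Positions are from GENCODE M21 on GRCm38, where 48058 of 48526 IDs were found. Genes were kept if a number of libraries equal to the smallest group reached 10 reads at median depth, with 15 reads in all, and tested by limma 3.58.1 (R 4.3.3, trend, robust) on log2(value + 1), all groups of an age in 1 fit. Such fold changes understate changes of low genes. Region differences are means over both genotypes. Intervals cover sampling in these libraries, and whether numbers in different regions mark the same mouse is not stated. On simulated data, 2-fold changes in 200 genes were recovered in 100% (E14), 100% (P30 hippocampus over frontal cortex) and 89.5% (P60 hippocampus, KO over WT). False calls numbered 11, 11 and 15. The changed genes had a mean of at least 100 reads, and the simulated spread between libraries was a fixed setting, not that of the 10 genes. These rates check the fits and do not give the power of the tests for the 10 genes. By the rule of 3 or more same-numbered pairs that each correlate above 0.1, KO and WT numbers pair in the P60 amygdala (0.210 to 0.321). In the P60 hippocampus 2 pairs had 0.624 and 0.497, and in the P60 frontal cortex the third of 3 was at 0.0307. The genes, lists and tests were chosen with earlier results of these data known. The genes named beside the 10 are those that overlap them, up to 3 called genes of a list in each direction, and the 3 nearest in pattern, of which 1 result is not reported here. The labels' growth protocol describes human cells and was not used, and the sample labels were followed where the design text names other ages and regions.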

Additional observations from a re-analysis of the deposited data

Results flagged for a closer look

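In 100 sets of 4 or 5 libraries, 5 held a library far from the rest by Dixon's test at its 95% level, where chance gives about 1 in 20. All 5 were high values at P30. Pax6 was at 20.7 in WT amygdala 3, against 14.8 to 15.4 in the other 3 WT libraries. Sox2 was at 28.0 in KO amygdala 3, against 20.8 to 21.4. Hopx was at 11.4 in WT amygdala 4, against 5.34 to 5.55. Eomes was at 12.2 in WT hippocampus 3, against 1.78 to 3.04, in the library with 5613 summed over choroid plexus genes, 62.6 over ependymal genes (14.5 to 25.8 in the other WT hippocampi) and 402 over hippocampal neuron genes (529 to 765). Neurog2 was at 1.39 in WT frontal cortex 1, against 0.480 to 0.610, a level of few reads.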

How the results depend on the processing

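The counts of genes called between KO and WT were 0 in all 7 settings under every alternative run: pseudocounts of 0.1 and 0.5, no filter, CPM, voom, sex as a covariate, 1 region alone, each library left out, and the P30 fit without the WT libraries numbered 3, which was chosen after seeing the data. Region counts moved mainly where 1 genotype was fitted alone, with fewer libraries. All region counts here have Eomes among the genes tested, though it passed the filter through its hippocampal libraries alone and its call had to be found. With WT libraries alone 4 genes differed between P30 hippocampus and frontal cortex (Fabp7, Hopx and Sstr2, beside Eomes) and 3 between P30 hippocampus and amygdala. At P60, WT libraries alone gave 2 between hippocampus and frontal cortex and 1 between amygdala and frontal cortex (Fabp7). With KO libraries alone 2 differed between P60 hippocampus and frontal cortex and 2 between P60 hippocampus and amygdala. With a replicate block across regions the counts were 7, 4 and 5 at P30 and 7, 4 and 4 at P60 (hippocampus over frontal cortex, amygdala over frontal cortex, hippocampus over amygdala), and with a replicate block within regions 0 genes differed between KO and WT. No call turned direction. The median share left in WT P30 frontal cortex was 8.62% with 1 scaling of all libraries, 7.20% with deposited values, and 7.13% as reported. Over all genes, calls between KO and WT were 9 at E14 (3 with the replicate block), 5 in P30 amygdala (25 without the WT libraries numbered 3), 3 in P30 frontal cortex (5 with no filter), 6 in P30 hippocampus (2 with that region alone, 265 without WT hippocampus 1), 4 in P60 amygdala (7 with the replicate block), 6 in P60 frontal cortex (3 without WT 1) and 4 in P60 hippocampus (0 with that region alone), and the cause was not tested. Region calls over all genes fell by more than 1.5 times with 1 genotype alone, to 4417 of 8217 between P30 hippocampus and frontal cortex. The count tests planned with edgeR and DESeq2 were not run.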
